A study of Coelastrella tenuitheca with 9 samples.

Results

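Wild-type cultures of the green microalga Coelastrella tenuitheca, strain S93-3, grown for 7 days with 20 mg/L CdCl2 (Cd20 1 to 3) were compared with cultures grown for 7 days without cadmium (Control 1 to 3). These 6 libraries, of 9 in the series, were taken by their labels alone. Both groups came from cells first grown with glucose under continuous light, so the untreated cultures share that history, and all libraries carry the same batch number. The other 3 libraries, from cultures with 50 mg/L CdCl2 (Cd50 1 to 3), enter as a higher dose set against the same controls. Messenger RNA was selected by its poly(A) tail and sequenced in strand-specific libraries. Nothing in the labels says that a group's libraries were separate cultures. The p-values therefore reflect only how far these samples spread, and that spread may be technical.

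Cadmium is a metal that most cells cannot use. It binds to thiol groups of proteins and of glutathione, and in plants and algae it is taken into the vacuole, whose membrane is energised by a V-type ATPase and by a pyrophosphatase that both pump protons. Making ribosomes is among the costliest tasks of a growing cell: ribosomal RNA is cut, folded with the help of RNA helicases and chemically modified before the subunits join. Messenger RNA is spliced and capped in the nucleus, and proteins bound for the vacuole, the cell surface or the outside enter the endoplasmic reticulum (ER) through the Sec61 channel.

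The deposited table holds 12605 genes, of which 19.49% have any product text and 10.55% have a text that says what the product might be. These names record a similarity, often to a fungal or other non-algal protein, and not a studied gene of this alga. From the product words 36 lists with 821 distinct genes were built, of which 753 passed the filter on low counts. Glutathione, glycolysis, flagella and ribosomal protein genes are left aside. The labels call the cells photosynthetic, and 21 of the 23 genes listed for photosynthesis and carbon fixation were detected above the filter. As the filter kept 11140 of all 12605 genes, this count alone says little about the cell type. In bulk RNA, fewer cells of a state and less RNA per cell cannot be told apart.

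The total count per library was 11635441, 12692083 and 10801254 in Cd20 1 to 3, against 15456743, 12145562 and 12141901 in Control 1 to 3. Correlations of log2 CPM (CPM is the count divided by the library's total, scaled to a common size with TMM factors, which adjust for composition) across genes, which are not independent replicates, were 0.990 to 0.993 within Cd20 and 0.980 to 0.991 within Control. Control 1 stood nearest to the cadmium libraries, with correlations of 0.961 to 0.967 to Cd20, against 0.929 to 0.940 for Control 2 and 0.946 to 0.954 for Control 3. Without Control 1 the number of genes called higher in Cd20 was 3062 and the number called lower 3321, against 2650 and 3026 with it.

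About as many genes were called higher as lower after 20 mg/L CdCl2 with TMM scaling, and changes of at least 2-fold were more often falls. Of 11140 genes tested, 5676 were called in edgeR's quasi-likelihood test at a Benjamini-Hochberg adjusted p under 0.05, which is 51.0% of them. The 2650 genes called higher made up 23.8% and the 3026 called lower 27.2%. This balance depended on the scaling. Rises were 46.7% of calls with TMM, 36.6% under library size alone and 39.7% under upper quartile factors, and the median log2 fold change of all genes was -0.035, -0.156 and -0.126 under these settings. At least 2-fold changes were called in 504 genes higher in Cd20 (4.52%) and in 1177 lower (10.6%). For 6866 genes (61.6%) the CPM ranges of the 3 Cd20 and 3 Control libraries did not overlap. The shares for a gene list below are read against these percentages, since a list with about 1 in 4 members called either way is at the level of the whole transcriptome. However, the lists hold only genes with an informative product, which were called somewhat more often. Of the 1251 such genes tested, 29.7% rose and 29.8% fell, so a small excess of a list over all genes means little.

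**Figure D1:**
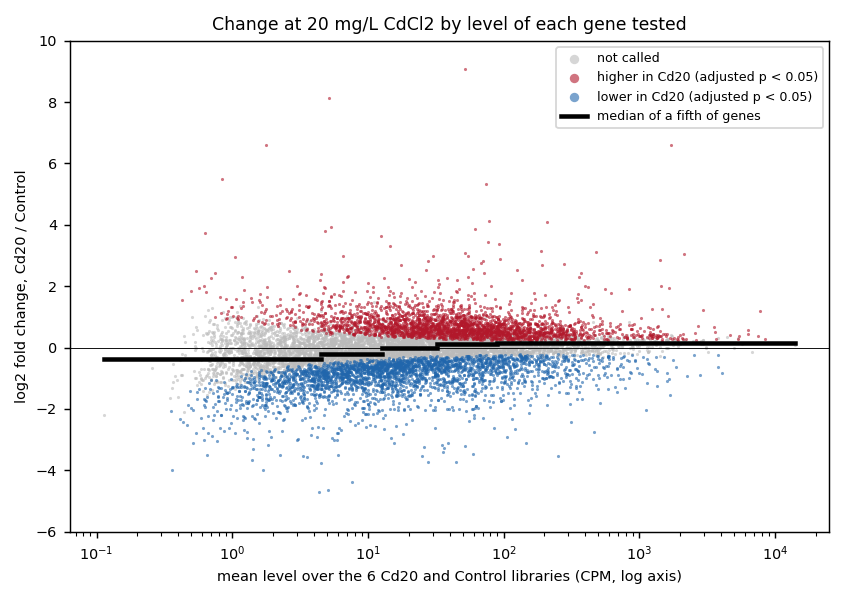
Log2 fold change of Cd20 over Control for the 11140 genes tested (vertical axis) against the mean CPM of the 6 libraries (horizontal log axis), coloured by call, with black bars for the medians of 5 equal groups by level. The median climbs from -0.39 in the lowest group to 0.16 in the highest, and calls among the weakest genes are mostly falls. The weakest genes could pass the low-count filter through Control or Cd50 libraries alone.

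The direction of change followed the level of a gene. Genes were split into 5 groups of equal size by their mean CPM over the 6 libraries, from 0.114 to 4.48 CPM in the lowest to 89.3 CPM and above in the highest. Rises were called for 6.01%, 15.4%, 26.8%, 35.6% and 35.1% of the genes from the lowest group to the highest. Falls were called for 28.0%, 32.6%, 31.0%, 23.1% and 21.2%. The median log2 fold change in these groups was -0.39, -0.22, 0.00, 0.13 and 0.16. The weakest genes of the lowest group could pass the low-count filter through Control or Cd50 libraries alone, so its falls are less certain. From the next group to the highest the median still climbed, from -0.22 to 0.16. The shares that follow include the lowest group. The 6684 genes of the lower 3 groups together held 5.94%, 6.03% and 5.96% of all counts in Cd20 1 to 3, against 6.34%, 7.31% and 7.11% in Control 1 to 3. These shares did not overlap, and Control 1 again lay closest to the Cd20 libraries. The exact two-sided permutation p was 0.1, the smallest that 3 libraries against 3 can give. It is no separate evidence for the trend, because the genes were sorted by these same 6 libraries and include the lowest group. At the other end, the 10 most abundant genes of a library took 7.44%, 7.47% and 7.19% of the counts in Cd20 1 to 3, against 5.88%, 7.09% and 6.45% in Control 1 to 3. For the 100 most abundant genes the shares were 27.6%, 27.1% and 27.3% in Cd20, against 25.3%, 26.3% and 25.6% in Control. Both differences, 0.893 and 1.62 percentage points, had the same smallest exact permutation p of 0.1.

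Calls varied little with coding length and chromosome. Over 5 equal groups by coding length, rises were 20.7% to 26.4% and falls 24.3% to 29.1% of genes. Rises were 21.2% to 26.9% and falls 24.6% to 31.2% of the genes tested on each of the 17 chromosomes.

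When genes were chosen for naming, 75 were set aside: those of the topics left out and those already examined in earlier results of these data. Some of the 75 changed by more than the described genes that follow. The peptidase M24 gene A10377 averaged 169 CPM in Cd20 and 16.5 CPM in Control (log2 fold change 3.36, SE 0.14), and E1-E2 ATPase gene A10982, of a family of ion pumps, 484 CPM in Cd20 and 73.1 CPM in Control (2.73, SE 0.13). The zinc/iron permease A07895 averaged 121 CPM in Cd20 and 809 CPM in Control (-2.74, SE 0.39), and beta-carotene ketolase A10744, of ketocarotenoid synthesis, 3.27 CPM in Cd20 and 19.4 CPM in Control (-2.56, SE 0.35).

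The genes that follow were ranked only among those of at least 10 CPM in the higher group and with no overlap of the libraries. Outside the 75 and within these limits, the largest rises among genes with an informative name were in an aldo-keto reductase and a short-chain dehydrogenase. A00100, named Protein tas after a bacterial aldo-keto reductase, was at 81.0, 70.2 and 71.4 CPM in Cd20, against 13.9, 17.4 and 17 CPM in Control. The groups were far apart, and the log2 fold change was 2.21 (SE 0.12, adjusted p = 1.21e-07). A00642, a short-chain dehydrogenase/reductase of a large family of NAD(P)-dependent enzymes, had 56.8, 51.9 and 53.1 CPM in Cd20, against 10.1, 13.0 and 12.3 CPM in Control (log2 fold change 2.19). A09010, of the metallo-beta-lactamase superfamily of metal-dependent hydrolases, had 17.3, 18.0 and 15.7 CPM in Cd20, against 5.30, 7.29 and 6.25 CPM in Control (log2 fold change 1.44).

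Further genes among the 12 largest of these rises carry names from ribosome assembly. A08857 carries the C-terminal domain of Spb1, which in yeast methylates ribosomal RNA, and had 35.9, 43.6 and 54.4 CPM in Cd20, against 16, 13.8 and 14.2 CPM in Control (log2 fold change 1.60). A07533, named for PNO1, a yeast factor of small-subunit assembly, had 31.6, 34.7 and 36.4 CPM in Cd20, against 16.2, 9.70 and 12.4 CPM in Control (1.42). A07627, named for rpf2, which in yeast helps to bring 5S RNA into the large subunit, had 89.9, 91.8 and 105 CPM in Cd20, against 47.8, 28.1 and 37.2 CPM in Control (1.34). No Cd20 library overlapped a Control library in any of these. A09615, whose name refers to the methylation of guanine, had 18.9, 21.1 and 31.3 CPM in Cd20, against 6.68, 5.72 and 8.50 CPM in Control (1.77).

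The falls of described genes outside the 75 were ranked within the same limits on CPM and overlap, and some described genes beyond these limits fell further. Among the 12 largest, A04336, a putative aldehyde dehydrogenase, had 5.11, 4.62 and 5.00 CPM in Cd20, against 20.9, 19.5 and 20.7 CPM in Control (log2 fold change -2.05, SE 0.14, adjusted p = 5.55e-07). A02360, glutamate decarboxylase, which turns glutamate into gamma-aminobutyrate, had 19.3, 20.5 and 15.4 CPM in Cd20, against 59.9, 92.2 and 71.9 CPM in Control (-2.02, SE 0.18). Every Control library was at least 2-fold above every Cd20 library for both. A01878, of the CobW/HypB/UreG family of nucleotide-binding proteins, some of which deliver metal ions to enzymes, had 25.5, 21.8 and 27.3 CPM in Cd20, against 91.3, 106 and 95.6 CPM in Control (-1.97, SE 0.12). A09561, a carboxyl transferase, had 9.54, 10.3 and 8.95 CPM in Cd20, against 29.2, 44.1 and 35.8 CPM in Control (-1.92). The HHE-domain gene A06785, of a family that often binds iron, had 18.3, 19.6 and 22.6 CPM in Cd20, against 54.2, 65.5 and 59.8 CPM in Control (-1.57). The xylose isomerase-like gene A00605 had 56.2, 50.0 and 45.5 CPM in Cd20, against 122, 165 and 156 CPM in Control (-1.54).

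Genes for splicing and mRNA processing were mostly higher after cadmium. Of 37 tested, 24 rose (64.9%), 7 fell and 6 were not called, and the median log2 fold change was 0.49, beside -0.035 over all genes tested. The rises lay among the stronger genes. In the 2 upper level groups 20 of 22 members rose and 1 fell, where 35.4% of all genes at those levels rose and 22.1% fell. Among the 15 weaker members 4 rose and 6 fell, where 16.1% and 30.5% of all such genes did. The median stayed above 0 under scaling by library size alone (0.37) or by upper quartiles (0.40). Leaving out 1 library gave 20 to 24 rises and 4 to 7 falls, with 4 falls without Control 2, Cd20 2 or Cd20 3.

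**Figure D2:**
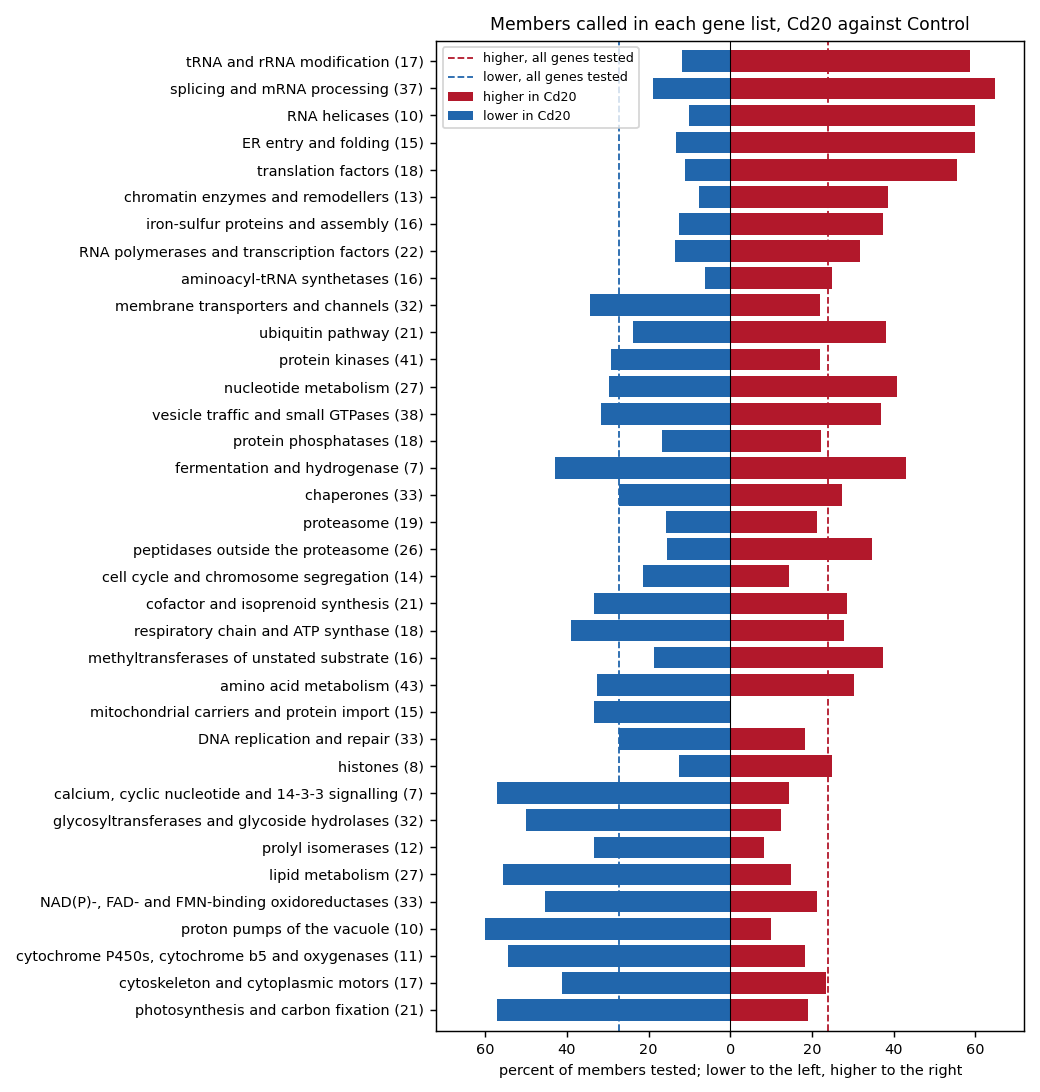
Percent of the tested members of each of 36 gene lists called higher in Cd20 (red, to the right) and lower in Cd20 (blue, to the left), with the number tested in brackets and dashed lines for all genes tested (23.8% and 27.2%). Lists are ordered by their median log2 fold change, with RNA lists at the top and the photosynthesis list (19.0% higher, 57.1% lower) at the bottom.

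A10046, a subunit of the complex that binds the cap of nuclear RNA, had 12.6, 12.9 and 14.5 CPM in Cd20, against 6.74, 5.47 and 6.41 CPM in Control (log2 fold change 1.10, SE 0.17, adjusted p = 0.000392). A09993, an arginine/serine-rich splicing factor of the kind that marks exons, had 99.1, 105 and 96.4 CPM in Cd20, against 47.2, 48.7 and 48.1 CPM in Control (1.06, SE 0.09). Both groups were tight and did not overlap in either gene. A07173, named for splicing factor 8 of the spliceosome core, had 628, 681 and 715 CPM in Cd20, against 538, 452 and 474 CPM in Control (0.47, SE 0.12). A05842, like RNA-binding protein 8A, which marks exon junctions, had 55.1, 50.7 and 62.0 CPM in Cd20, against 36.5, 25.7 and 30.7 CPM in Control (0.85, SE 0.19). The strongest fall, A04209, belongs by name to the CCR4-NOT complex, which shortens poly(A) tails and so leads to mRNA decay. It had 4.82, 5.66 and 5.52 CPM in Cd20, against 10.0, 12.5 and 10.5 CPM in Control (-1.04, SE 0.16).

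RNA helicases and enzymes that modify tRNA and rRNA rose in most cases. Of 10 helicases 6 rose and 1 fell, with a median log2 fold change of 0.48, and of 17 modification genes 10 rose and 2 fell, with a median of 0.50. HAS1 (A09626), which in yeast serves the assembly of both ribosomal subunits, had 33.1, 38.4 and 47.3 CPM in Cd20, against 14.7, 13.9 and 15.3 CPM in Control (1.43, SE 0.16, adjusted p = 3.82e-05). The helicases A02919 (DBP10) and A03862 (dbp3), both named for yeast factors of the large subunit, each had a log2 fold change of 1.07. In A03862 the levels were 315, 313 and 371 CPM in Cd20, against 192, 128 and 156 CPM in Control. The methyltransferase nop2 (A04256), which acts on the large ribosomal RNA, had 184, 205 and 196 CPM in Cd20, against 95.9, 67.6 and 73.0 CPM in Control (1.31, SE 0.22). In each of these 4 genes the Cd20 libraries lay above all Control libraries, and in DBP10, dbp3 and nop2 Control 1 was the highest Control library.

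Other methyltransferases of tRNA and rRNA had fewer counts. A05925, which methylates a uridine of tRNA, had 15.7, 15.4 and 18.3 CPM in Cd20, against 6.68, 6.96 and 5.75 CPM in Control (log2 fold change 1.35, SE 0.20). A05926, which makes dimethylguanosine in tRNA, had 13.1, 15.8 and 18.6 CPM in Cd20, against 6.06, 8.04 and 6.58 CPM in Control (1.20, SE 0.17). A02782, for an adenosine of 25S rRNA, had 7.52, 9.76 and 13.6 CPM in Cd20, against 3.65, 4.39 and 5.25 CPM in Control (1.22, SE 0.24). A05925 and A05926 have neighbouring identifiers and both lie on chromosome 2 in the deposited coordinates, for which no source used here names an assembly. The helicase rises numbered 4 to 7 with 1 library left out and the modification rises 7 to 11. The helicase fall numbered 2 without Control 1 and 0 without Control 2, Control 3, Cd20 1 or Cd20 2. The falls in modification genes numbered 0 without Control 2 or Cd20 3 and 1 without Control 3, Cd20 1 or Cd20 2.

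**Figure D3:**
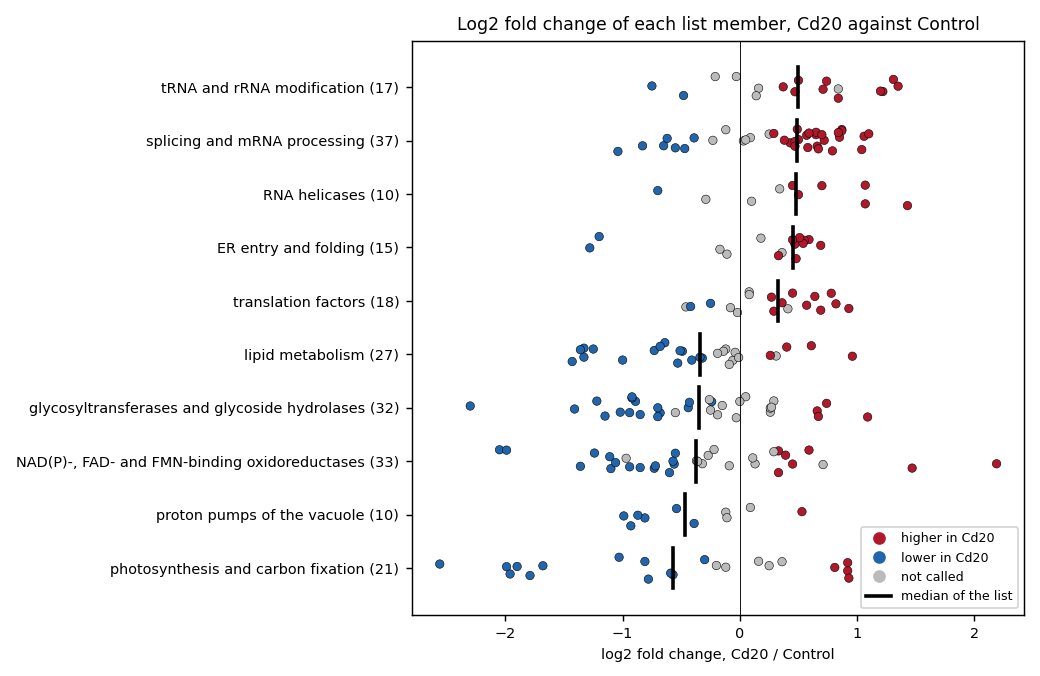
Log2 fold change of Cd20 over Control (horizontal axis) for every tested member of 10 gene lists, 1 point per gene, red for higher, blue for lower and grey for not called, with a black bar at the list's median. The 5 lists at the top have medians of 0.32 to 0.50 and the 5 at the bottom medians of -0.57 to -0.34, and each list holds genes on both sides of 0.

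Translation factors followed the same direction, and the enzymes that load tRNAs did so in few cases. Of 18 translation factors 10 rose and 2 fell (median log2 fold change 0.32). All 10 that rose were among the 13 in the upper level groups, where 35.4% of all genes rose. The alpha subunit of eIF2 (A08786), the factor that brings the initiator tRNA and whose phosphorylation slows translation, had 51.8, 61.6 and 61.2 CPM in Cd20, against 32.4, 29.2 and 30.2 CPM in Control (0.93, SE 0.11, adjusted p = 4.47e-05). The eIF3 subunit A06601, part of the large complex that prepares the small ribosomal subunit, had 144, 147 and 176 CPM in Cd20, against 89.1, 85.3 and 89.1 CPM in Control (0.82, SE 0.10). Neither gene's groups overlapped. With 1 library left out 7 to 10 translation factors rose, and 1 fell without Control 2, Control 3, Cd20 2 or Cd20 3.

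Of 16 aminoacyl-tRNA synthetases 4 rose, 1 fell and 11 were not called (median 0.12). With library size alone 2 rose and 4 fell, and with upper quartile factors 2 rose and 3 fell. The number that rose was 2 without Cd20 1, and the number that fell was 4 without Control 1. Histidyl-tRNA synthetase (A00908) had 57.8, 61.6 and 73.4 CPM in Cd20, against 28.4, 34.4 and 32.6 CPM in Control (1.02, SE 0.12). Threonyl-tRNA synthetase (A05437) had 101, 108 and 122 CPM in Cd20, against 59.3, 48.6 and 56.9 CPM in Control (1.00, SE 0.15). Glutamate-tRNA ligase (A02671) went the other way, with 23.7, 25.7 and 17.2 CPM in Cd20, against 32.1, 51.5 and 44.2 CPM in Control (-0.93, SE 0.21).

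Among 22 RNA polymerase and transcription factor genes 7 rose and 3 fell (median 0.15), with 4 rises without Control 3 or with library size alone. The polymerase III core subunit ret1 (A07811), for the enzyme that makes tRNA and 5S RNA, had 116, 124 and 126 CPM in Cd20, against 74.5, 63.3 and 61.6 CPM in Control (0.88, SE 0.14). The polymerase I subunit rpa2 (A09438), for the enzyme that makes the large ribosomal RNAs, had 63.5, 65.5 and 93.0 CPM in Cd20, against 33.5, 46.1 and 41.2 CPM in Control (0.88, SE 0.16). Both stood above all Control libraries. The gene named transcription factor IIB (A04539), a general factor of polymerase II, had 5.78, 4.62 and 3.75 CPM in Cd20, against 9.63, 12.6 and 12.9 CPM in Control (-1.30, SE 0.19).

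Genes for entry into the ER and folding there were higher after cadmium. Of 15 tested, 9 rose (60.0%), 2 fell and 4 were not called (median log2 fold change 0.45). All 9 that rose were among the 11 members of the upper level groups, where 35.4% of all genes rose. The Sec61 gamma subunit (A06510), part of the channel through which new proteins enter the ER, had 394, 353 and 375 CPM in Cd20, against 271, 198 and 228 CPM in Control (0.69, SE 0.12, adjusted p = 0.000814). Calreticulin (A10050), a calcium-binding chaperone of glycoproteins, had 549.5, 551 and 553 CPM in Cd20, against 406, 364 and 364 CPM in Control (0.54, SE 0.09). Each Cd20 library was above each Control library in both genes. Disulfide isomerase (A10684), which forms and reshuffles disulfide bonds, had 245, 244 and 247 CPM in Cd20, against 186, 161 and 169.6 CPM in Control (0.51, SE 0.09). Derlin (A04412), which takes part in returning misfolded proteins to the cytosol, had 81.8, 74.1 and 68.2 CPM in Cd20, against 58.2, 43.3 and 51.1 CPM in Control (0.55, SE 0.12). The transitional ER ATPase (A03300), the motor that extracts such proteins, had 716, 699.7 and 666 CPM in Cd20, against 539, 473 and 489.7 CPM in Control (0.47, SE 0.09).

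A member that fell does a different job in the same compartment. The oligosaccharyl transferase subunit stt3 (A05287), which attaches sugar chains to proteins, had 13.3, 13.6 and 13.0 CPM in Cd20, against 28.1, 36.5 and 32.5 CPM in Control (log2 fold change -1.28, SE 0.14). With 1 library left out, 8 to 10 genes of the list rose and 2 fell.

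The machinery that removes proteins showed small changes in both directions. Of 19 proteasome genes 4 rose and 3 fell, and the median log2 fold change was 0.00. Of 21 ubiquitin genes 8 rose and 5 fell, with a median of 0.08. Under scaling by library size alone, 5 rose and 5 fell, and the median was -0.04. All 8 ubiquitin rises were among the 13 members of the upper level groups, where 35.4% of all genes rose. Of the 5 falls 4 were among the 8 weaker members, where 30.5% of all genes fell. A02498, a polyubiquitin-A-like gene, had 1743, 1758 and 1558 CPM in Cd20, against 1228, 1127 and 1115 CPM in Control (0.54, SE 0.09). The SUMO-conjugating enzyme ubc9 (A00588), which attaches a relative of ubiquitin, had 202, 183 and 187 CPM in Cd20, against 140.1, 91.7 and 109 CPM in Control (0.75, SE 0.19). Both genes were separated between the groups. Ubiquitin rises numbered 5 without Control 2 or Control 3 and 4 without Cd20 1, and falls 3 without Control 2, Control 3, Cd20 2 or Cd20 3.

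Chaperones were split evenly, with 9 rises and 9 falls in 33 tested (median 0.01), and their shares of 27.3% each way lay near those of all genes. With library size alone 8 rose and 11 fell (median -0.11). Log2 fold changes in the list ran from -0.72 to 1.12. Among genes set aside from naming, the HSP20-like chaperone A01849 averaged 57.9 CPM in Cd20 and 26.6 CPM in Control (1.12, SE 0.13). The hsp82-like gene A06936, also set aside, averaged 2181 CPM in Cd20 and 1066 CPM in Control (1.03, SE 0.12). Subunits of the chaperonin that folds actin and tubulin were among those that fell: T-complex protein 1 beta (A07921) had 23.4, 23.8 and 19.6 CPM in Cd20, against 33.7, 41.2 and 35.5 CPM in Control (-0.72, SE 0.13). Of 12 prolyl isomerases, enzymes that turn peptide bonds at proline, 1 rose and 4 fell (median -0.34). All 4 falls were among the 10 members of the lower 3 level groups, where 30.5% of all genes fell. The rise was 0 without Control 2, Control 3, Cd20 1 or Cd20 2, and 2 fell without Control 2 and 6 with library size alone. Peptidases outside the proteasome rose in 9 of 26 cases and fell in 4 (median -0.02), with 2 falls without Control 2 or Control 3 and 1 without Cd20 3. Under scaling by library size alone, 7 peptidase genes rose and 6 fell. The trypsin-like protease A10219 had 46.9, 46.9 and 46.7 CPM in Cd20, against 31.1, 24.1 and 31.0 CPM in Control (0.70, SE 0.12).

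The proton pumps of the vacuole parted. The pyrophosphatase, which pumps protons at the cost of pyrophosphate, rose, whereas 6 of the 9 genes named for the V-type ATPase fell and 3 were not called. A02544, the pyrophosphatase, had 1097, 1129 and 1211 CPM in Cd20, against 828, 734 and 810.1 CPM in Control (log2 fold change 0.53, SE 0.09, adjusted p = 0.000456). It lies on chromosome 14 from 2477209 to 2482442 in the deposited coordinates. Catalytic subunit A of the ATPase (A05895), on chromosome 2 from 5979245 to 5985492, had 108, 106 and 93.4 CPM in Cd20, against 162, 218 and 205 CPM in Control (-0.93, SE 0.13, adjusted p = 0.000156). The groups were separated in both genes, in opposite directions.

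**Figure D4:**
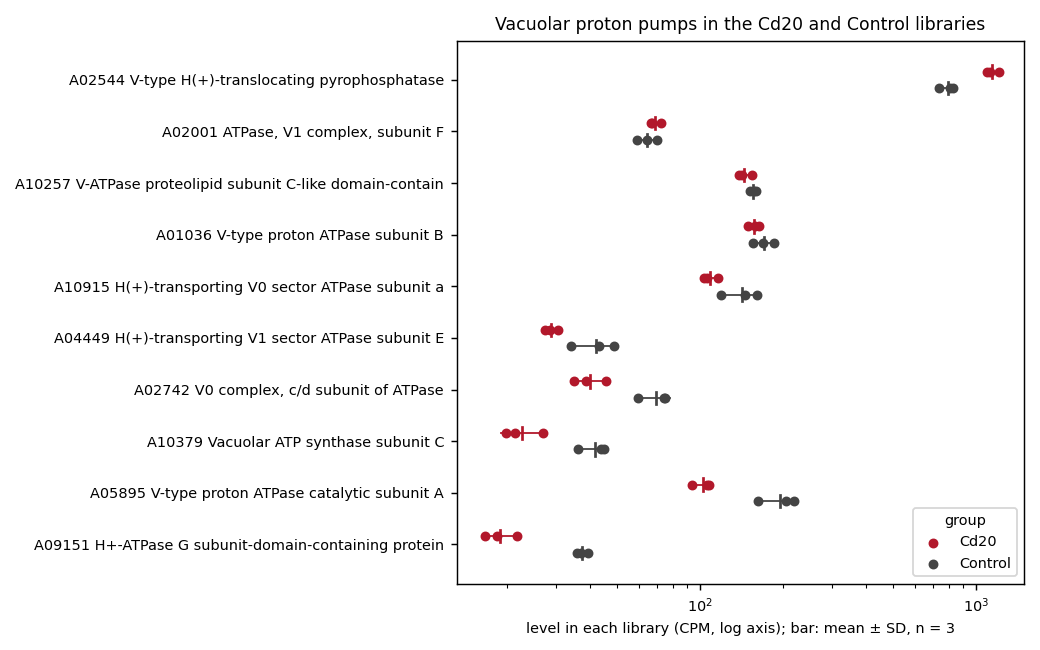
CPM (horizontal log axis) of the 10 genes for vacuolar proton pumps in the 3 Cd20 (red) and 3 Control (grey) libraries, with the mean and SD as bars. The pyrophosphatase at the top lies to the right in Cd20, and the 6 ATPase genes at the bottom lie to the left.

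Subunit G (A09151), of the stalk that couples the 2 sectors of the enzyme, had 21.6, 18.3 and 16.6 CPM in Cd20, against 35.8, 39.4 and 37.0 CPM in Control (log2 fold change -0.99, SE 0.14). Subunit C (A10379) had 26.9, 21.4 and 19.8 CPM in Cd20, against 36.1, 44.7 and 43.9 CPM in Control (-0.87, SE 0.16). The membrane-sector c/d subunit (A02742) had 45.6, 34.9 and 38.7 CPM in Cd20, against 59.8, 73.9 and 74.6 CPM in Control (-0.81, SE 0.13). The groups did not overlap in these 3 genes or in subunit E (A04449, -0.54, SE 0.15) and subunit a (A10915, -0.39, SE 0.12). Subunit a was no longer called without Control 2, Control 3, Cd20 2 or Cd20 3 (edgeR adjusted p 0.0624 to 0.081). Subunit B (A01036, -0.12), the proteolipid subunit (A10257, -0.11) and subunit F (A02001, 0.09) were not called, and their libraries overlapped. With 1 library left out the list had 1 rise and 5 to 6 falls, and its median of -0.46 was -0.59 with library size alone.

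Transporters and genes of vesicle traffic moved both ways. Of 32 membrane transporters and channels 7 rose and 11 fell, with a median log2 fold change of 0.08 that was -0.04 under library size alone, and 4 rose without Control 2, Cd20 1 or Cd20 2, or with library size alone. Among the 17 in the upper level groups 6 rose and 3 fell, where 35.4% and 22.1% of all genes did. Among the 15 weaker ones 1 rose and 8 fell, where 16.1% and 30.5% of all genes did. The aquaporin-like gene A03898, of a family of water and solute channels, had 84.9, 86.5 and 73.0 CPM in Cd20, against 157, 156 and 149.9 CPM in Control (-0.92, SE 0.10). The zinc permease family gene A04655 had 46.3, 44.5 and 40.3 CPM in Cd20, against 31.8, 25.6 and 27.5 CPM in Control (0.63, SE 0.17). Its levels were modest but separated. The gene named S-adenosylmethionine transporter (A00843) had 7.71, 7.41 and 7.70 CPM in Cd20, against 11.8, 20.5 and 21.0 CPM in Control (-1.22, SE 0.22).

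Of 38 genes for vesicle traffic and small GTPases 14 rose and 12 fell (median 0.04), and with library size alone 12 rose and 14 fell (median -0.08). Among the 20 in the upper level groups 11 rose and 3 fell, where 35.4% and 22.1% of all genes did. Among the 18 weaker ones 3 rose and 9 fell, where 16.1% and 30.5% of all genes did. Rab-7 (A03503), a GTPase of late endosomes and of fusion with the vacuole, had 46.8, 44.6 and 43.5 CPM in Cd20, against 85.7, 101 and 89.8 CPM in Control (-1.03, SE 0.10, adjusted p = 1.57e-05). A SNAP receptor (A07364), of the proteins that fuse membranes, had 10.2, 9.50 and 7.70 CPM in Cd20, against 17.9, 21.3 and 18.2 CPM in Control (-1.06, SE 0.16). TRAPP subunit trs31 (A04778), of a complex that tethers vesicles from the ER, had 35.6, 38.1 and 39.5 CPM in Cd20, against 29.2, 21.3 and 22.2 CPM in Control (0.64, SE 0.16).

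Lipid metabolism was mostly lower. Of 27 genes 15 fell (55.6%), 4 rose and 8 were not called, with a median log2 fold change of -0.34. The falls were spread over levels, with 8 of 13 members of the upper groups and 7 of 14 of the lower ones. Over all genes 22.1% fell in the upper groups and 30.5% in the lower. Genes of fatty acid synthesis were among the falls. Genes whose names can belong to fatty acid breakdown were among both the falls and the rises, so the list did not divide by pathway. The peroxisomal acyl-CoA synthetase A00912, which activates fatty acids, had 27.7, 26.8 and 22.3 CPM in Cd20, against 50.9, 75.8 and 66.5 CPM in Control (-1.33, SE 0.17, adjusted p = 7.94e-05). The thiolase-domain gene A04643, of enzymes that cleave or join acyl-CoAs, had 11.6, 9.06 and 8.02 CPM in Cd20, against 20.4, 31.0 and 25.9 CPM in Control (-1.43, SE 0.19). In the ketoacyl synthase gene A07938, of fatty acid synthesis, the levels were 24.6, 27.8 and 24.5 CPM in Cd20, against 50.6, 81.0 and 65.6 CPM in Control (-1.36). In none of the 3 did the groups overlap.

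Another gene with the same product name as A00912 went the opposite way. A02008, also named peroxisomal acyl-CoA synthetase 7, had 79.4, 80.8 and 92.7 CPM in Cd20, against 61.9, 49.1 and 54.3 CPM in Control (log2 fold change 0.61, SE 0.14). Reads of genes that share a product name may be split between them, so single copies are uncertain. The acyl-CoA dehydrogenase A08529, of the first step of beta-oxidation, had 13.8, 12.3 and 11.7 CPM in Cd20, against 5.99, 6.22 and 7.16 CPM in Control (0.96, SE 0.18). The peroxisomal 3-ketoacyl-CoA thiolase A09909, of the 75 genes set aside, averaged 174 CPM in Cd20 and 146 CPM in Control (0.26, SE 0.09). With 1 library left out the falls numbered 12 to 13, and the rises were 2 without Control 3, Cd20 1 or Cd20 2, or with library size alone.

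Enzymes that build or cleave sugar chains were also lower in most called cases. Of 32 glycosyltransferases, glycoside hydrolases and sugar-nucleotide enzymes 16 fell (50.0%) and 4 rose, with a median log2 fold change of -0.34. With library size alone 21 fell and 2 rose. Mannose-1-phosphate guanyltransferase makes GDP-mannose, the donor for mannose in glycoproteins and walls, and had 2 genes. A04852 had 160.3, 148 and 144 CPM in Cd20, against 269, 299 and 287 CPM in Control (-0.92, SE 0.09, adjusted p = 1.09e-05). A10480 had 221, 208 and 218 CPM in Cd20, against 335, 369 and 351 CPM in Control (-0.70, SE 0.08). Both were clearly separated. The debranching protein GlgX (A08800), which trims branches of stored glucan, had 164, 152 and 143 CPM in Cd20, against 266, 324 and 277 CPM in Control (-0.92, SE 0.10).

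Among the 4 rises of the same list were a beta-glucosidase and the enzyme that precedes GDP-mannose synthesis. A01856, the putative beta-glucosidase, had 299, 302 and 287 CPM in Cd20, against 106, 171 and 139 CPM in Control (log2 fold change 1.09, SE 0.15). Phosphomannomutase (A07308), which makes mannose-1-phosphate, had 224, 233 and 271 CPM in Cd20, against 183, 126 and 148 CPM in Control (0.67, SE 0.16). This is the substrate of the guanyltransferases that fell. Leaving out 1 library gave 13 to 17 falls, and 2 rises without Control 2 or Cd20 2.

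For photosynthesis and carbon fixation 12 of 21 genes fell (57.1%) and 4 rose, with a median log2 fold change of -0.57 that was -0.70 with library size alone. Chlorophyll synthase (A03155), which adds the phytol tail to chlorophyll, had 28.7, 28.5 and 27.6 CPM in Cd20, against 42.3, 56.9 and 49.3 CPM in Control (-0.81). Phosphoenolpyruvate carboxylase (A10509), which fixes bicarbonate, had 68.4, 74.5 and 69.8 CPM in Cd20, against 96.8, 144 and 126 CPM in Control (-0.78, SE 0.14). Genes that share the name chlorophyll a-b binding protein 3C, an antenna protein, moved in opposite directions. A02981 had 30.2, 20.6 and 20.9 CPM in Cd20, against 56.5, 84.7 and 88.3 CPM in Control (-1.68). A10888 had 30.9, 26.6 and 21.3 CPM in Cd20, against 92.6, 102 and 99.2 CPM in Control (-1.90, SE 0.15). A03391 had 62.0, 51.5 and 53.7 CPM in Cd20, against 27.3, 32.1 and 28.5 CPM in Control (0.93). Each was separated between groups, with the same limit on copies of 1 name. With 1 library left out 10 to 13 genes fell and 4 to 6 rose.

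Respiration and the exchange of nucleotides across the mitochondrial membrane had lower members at high levels. Of 18 genes for the respiratory chain and ATP synthase 7 fell and 5 rose (median log2 fold change -0.14). Under scaling by library size alone, 10 fell and 2 rose, and with upper quartile factors 9 fell and 3 rose. The beta subunit of the mitochondrial ATP synthase (A00554), its catalytic part, had 264, 244 and 255 CPM in Cd20, against 374, 547 and 481 CPM in Control (-0.88, SE 0.13, adjusted p = 0.00024). Succinate dehydrogenase (A00581), shared by the citrate cycle and the respiratory chain, had 73.6, 61.4 and 62.4 CPM in Cd20, against 109, 119 and 121 CPM in Control (-0.82, SE 0.10). The ADP/ATP translocator (A03782), which trades ATP made in mitochondria for cytosolic ADP, had 220.1, 199.8 and 185 CPM in Cd20, against 306, 398 and 379.7 CPM in Control (-0.84, SE 0.12). All 3 were lower in every Cd20 library than in any Control library.

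Among the rises were assembly genes of the chain. Holocytochrome c synthase (A05657), which attaches haem to cytochrome c, had 32, 30.9 and 36.8 CPM in Cd20, against 18.9, 13.3 and 15.2 CPM in Control (log2 fold change 1.07, SE 0.20). The cytochrome c oxidase assembly gene CtaG/Cox11 (A07979), which delivers copper, had 10.2, 11.4 and 13.4 CPM in Cd20, against 7.64, 8.12 and 6.16 CPM in Control (0.67, SE 0.17). The rises of the respiratory list numbered 2 without Control 2, Control 3 or Cd20 1 and 3 without Cd20 3. Of 15 mitochondrial carriers and import genes 0 rose and 5 fell (4 to 5 with 1 library left out). The carrier ymc2 (A04964) had 12.2, 11.6 and 10.9 CPM in Cd20, against 23.4, 27.9 and 24.8 CPM in Control (-1.13, SE 0.13).

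Of 7 fermentation and hydrogenase genes 3 rose and 3 fell, and 2 rose with library size alone. Pyruvate formate lyase (A05227), which splits pyruvate without oxygen, had 6000.0, 6137 and 6154 CPM in Cd20, against 4659, 4824 and 4579.6 CPM in Control (log2 fold change 0.38, SE 0.08). Formate C-acetyltransferase (A00596), another name for the same enzyme, had 5118, 5314 and 5470.5 CPM in Cd20, against 4151, 3961 and 3874 CPM in Control (0.41, SE 0.08). Both were higher in each Cd20 library. Pyruvate decarboxylase (A00981), which leads to ethanol, had 171, 166 and 155 CPM in Cd20, against 209, 279 and 242 CPM in Control (-0.57, SE 0.12). Acetate kinase (A00532) averaged 23.2 CPM in Cd20 and 36.5 CPM in Control (-0.65, SE 0.19).

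Oxidoreductases that bind NAD(P), FAD or FMN fell in 15 of 33 cases (45.5%) and rose in 7, with a median log2 fold change of -0.37. The direction followed the level, as it did over all genes. Of the 9 in the upper groups 6 rose and 3 fell, where 35.4% and 22.1% of all genes did. Of the 24 weaker ones 1 rose and 12 fell, where 16.1% and 30.5% of all genes did. Leaving out 1 library gave 12 to 17 falls and 5 to 7 rises, and 4 rose with library size alone. Among 11 cytochrome P450, cytochrome b5 and oxygenase genes 6 fell and 2 rose, with 3 falls without Cd20 2. Of the 6 falls 5 were among the 7 weaker genes of this list, and both rises were among the 4 stronger ones. The abundant cytochrome P450 A02478, of a family of haem enzymes that insert oxygen, had 463, 488 and 511 CPM in Cd20, against 967, 879 and 873 CPM in Control (-0.89, SE 0.09, adjusted p = 1.83e-05). It was lower by about the same factor in every library.

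Of 16 genes for iron-sulfur proteins and their assembly 6 rose and 2 fell (median 0.18), with 1 fall without Cd20 3. Ferredoxin (A03671), a small electron carrier, had 1466, 1353 and 1232 CPM in Cd20, against 771, 641 and 663 CPM in Control (log2 fold change 0.97, SE 0.12, adjusted p = 7.53e-05). The assembly accessory protein A09256, of the proteins that build the clusters, had 45.0, 45.9 and 48.2 CPM in Cd20, against 27.7, 21.4 and 24.7 CPM in Control (0.91, SE 0.12). Neither gene's groups overlapped. The bola-like gene A06411, of a family that works with glutaredoxins, had 16.7, 13.2 and 16.1 CPM in Cd20, against 23.1, 23.2 and 22 CPM in Control (-0.57, SE 0.13).

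Amino acid metabolism had 13 rises and 14 falls in 43 genes (median log2 fold change -0.15) and 8 rises without Control 2. The balance depended on the scaling, with 9 rises and 19 falls under library size alone (median -0.27) and 10 and 17 under upper quartile factors. Aspartate transaminase (A01120) had 19.8, 19.8 and 20.4 CPM in Cd20, against 12.1, 11.6 and 10.5 CPM in Control (0.81, SE 0.13). The trifunctional histidinol dehydrogenase (A05498), of histidine synthesis, had 119, 115 and 130.1 CPM in Cd20, against 82.3, 61.4 and 70.3 CPM in Control (0.76, SE 0.13). The aminotransferase A05058 had 12.1, 12.5 and 12.4 CPM in Cd20, against 21.3, 48.2 and 37.5 CPM in Control (-1.53, SE 0.25), so the Cd20 libraries were nearly equal while the Control libraries spread widely.

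In nucleotide metabolism 11 of 27 genes rose and 8 fell (median 0.05, and -0.07 with library size alone), with 5 falls without Cd20 3. Adenylate kinase isoenzyme 6-like A03585, a nuclear kinase whose yeast relative takes part in making the small ribosomal subunit, had 28.9, 30.7 and 38.5 CPM in Cd20, against 15.5, 10.6 and 14.7 CPM in Control (1.26, SE 0.18). Of 21 genes for cofactors and isoprenoids 6 rose and 7 fell (median -0.14). The rises numbered 3 without Control 2, Control 3 or Cd20 3, and the falls 4 without Control 2. Scaled by library size alone, 5 rose and 8 fell. Glutamine-dependent NAD synthetase (A01962), the last step of NAD synthesis, had 4.63, 4.27 and 4.16 CPM in Cd20, against 7.71, 13.8 and 10.7 CPM in Control (-1.29, SE 0.22). Methyltransferases with no stated substrate rose in 6 of 16 cases and fell in 3 (median -0.15), with 3 rises without Control 2 or Control 3 and 5 falls without Control 1. Under scaling by library size alone, 4 rose and 5 fell.

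Genes of DNA replication and repair were called at shares near those of all genes. Of 33 tested 6 rose (18.2%) and 9 fell (27.3%), where 23.8% and 27.2% of all genes did. The median log2 fold change was -0.20, and 3 rose without Cd20 3. With library size alone 4 rose and 10 fell. All 9 falls were among the 23 weaker genes (39.1% of these), where 30.5% of all genes at those levels fell. Replication factor C subunit 4 (A02430), part of the clamp loader of replication, had 7.23, 4.79 and 5.52 CPM in Cd20, against 9.29, 18.0 and 13.1 CPM in Control (-1.20, SE 0.24). Another subunit, A04482, had 11.2, 9.85 and 7.39 CPM in Cd20, against 14.3, 25.9 and 19.1 CPM in Control (-1.05, SE 0.22). In both, Control 1 lay nearest to the Cd20 range. The DNA glycosylase A06894, which removes damaged bases, had 98.0, 85.4 and 92.2 CPM in Cd20, against 52.2, 40.0 and 50.0 CPM in Control (0.95, SE 0.12, adjusted p = 5.76e-05).

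Histone genes could hardly be measured. Of 54 members 46 did not pass the filter, 14 had no count in any library, and the 46 together had 64, 50 and 42 counts in Cd20 1 to 3, against 65, 49 and 55 counts in Control 1 to 3. In animals, messenger RNA of replication-dependent histones lacks a poly(A) tail, and whether this holds in this alga was not tested. The 23 genes of the H3 family held 3371, 3511 and 3386 counts in Cd20, against 4794, 3233 and 3454 counts in Control, nearly all from the 2 that were tested. Of the 8 histone genes tested 2 rose and 1 fell, with 1 rise under library size alone. A04112, a histone H3, had 198, 190.1 and 219 CPM in Cd20, against 168, 130.1 and 137 CPM in Control (log2 fold change 0.48, SE 0.12). The other tested H3 gene, A07570, named histone H3.2, averaged 123 ± 8.8 CPM in Cd20 and 148 ± 12.1 CPM in Control (SD, n = 3 each) and fell (-0.26, SE 0.10, adjusted p = 0.0428). Of the 13 genes for chromatin enzymes 5 rose and 1 fell (median 0.27). Only 2 rose without Control 2 or Control 3, and 3 without Cd20 1, Cd20 2 or Cd20 3. The NuA3 component A02151, of a complex that acetylates histones, had 21.6, 25.4 and 22.8 CPM in Cd20, against 10.8, 10.2 and 9.75 CPM in Control (1.18, SE 0.14). RuvB-like 2 (A02099), an ATPase of remodelling complexes, had 9.64, 9.33 and 8.12 CPM in Cd20, against 16, 22.8 and 20.0 CPM in Control (-1.11, SE 0.19).

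Of 14 cell cycle genes 2 rose and 3 fell (median -0.10). The rises numbered 0 without Control 2, Control 3, Cd20 1 or Cd20 2 and 1 without Control 1 or Cd20 3. Under scaling by library size alone, 1 rose and 5 fell. The cyclin-dependent kinase A09250 had 6.55, 4.71 and 5.83 CPM in Cd20, against 8.81, 17.1 and 13.1 CPM in Control (log2 fold change -1.19, SE 0.23). Of 17 cytoskeleton genes 7 fell and 4 rose (median -0.52), with 4 falls without Control 3. The direction followed the level, as it did over all genes. Among the 11 weaker members 6 fell and 0 rose, where 30.5% and 16.1% of all genes did. All 4 rises were among the 6 members of the upper level groups, where 35.4% of all genes rose. The abundant tubulins rose slightly: alpha-tubulin A02279 had 2377, 2305 and 2573 CPM in Cd20, against 1918, 1657 and 1749 CPM in Control (0.45, SE 0.11). Beta-tubulin A07845 had 901, 905 and 942 CPM in Cd20, against 730.3, 655 and 670 CPM in Control (0.42, SE 0.09). The kinesin-like gene kif9 (A02730), of a kinesin family known from cilia, had 57.3, 54.9 and 56.3 CPM in Cd20, against 88.8, 99.1 and 91.6 CPM in Control (-0.73, SE 0.09).

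Protein kinases were called at shares near those of all genes. Of 41 tested 9 rose and 12 fell (median log2 fold change 0.06, and -0.06 with library size alone). The rises numbered 4 without Control 2 or Cd20 3 and 5 without Control 3, Cd20 1 or Cd20 2, and 4 with library size alone. The kinase-like gene A01104 had 17.8, 19.5 and 23.1 CPM in Cd20, against 58.3, 59.1 and 55.8 CPM in Control (-1.52, SE 0.12, adjusted p = 2.77e-06). The kinase subunit of TFIIH (A04706), which phosphorylates RNA polymerase II, had 14.2, 14 and 14.5 CPM in Cd20, against 7.36, 6.55 and 7.08 CPM in Control (1.02, SE 0.15). Both were tightly grouped and apart. Of 18 protein phosphatases 4 rose (22.2%) and 3 fell (16.7%, median 0.04). With library size alone 2 rose and 7 fell (median -0.08), and with upper quartile factors 3 rose and 5 fell. Their rises numbered 1 without Control 2, Control 3, Cd20 2 or Cd20 3 and 2 without Cd20 1, and their falls 1 without Control 2 or Cd20 2. Calmodulin (A07509), the main calcium sensor, had 90.3, 78.4 and 84.2 CPM in Cd20, against 110.1, 119 and 112 CPM in Control (-0.43, SE 0.09). It was 1 of 4 falls and 1 rise among 7 calcium, cyclic nucleotide and 14-3-3 genes (median -0.28). That rise numbered 2 without Control 1 and 0 without Control 2, Control 3, Cd20 1 or Cd20 2, or with library size alone.

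The largest changes were in genes with no informative product. Among the 75 genes set aside, A03867 averaged 103 CPM in Cd20 and 0.184 CPM in Control (log2 fold change 9.07, SE 0.32). This was the highest log2 fold change of all genes tested. Novel00414, also among the 75, averaged 3370.0 CPM in Cd20 and 34.3 CPM in Control (log2 fold change 6.62, SE 0.16). A07363 had 136, 140.3 and 156 CPM in Cd20, against 3.10, 3.73 and 3.92 CPM in Control, a 40.3-fold difference of the means (log2 fold change 5.33, SE 0.14, adjusted p = 3.23e-10). A01711 had 431, 442 and 313 CPM in Cd20, against 14.9, 28.8 and 25.4 CPM in Control (4.11, SE 0.28), and A01723 had 139, 133 and 168 CPM in Cd20, against 8.60, 8.78 and 7.75 CPM in Control (4.13, SE 0.14). A01710 had 326 counts in the 3 Cd20 libraries together, against 1 count in the 3 Control libraries, a ratio of 369 after division by the summed totals. Its exact 95% interval was 65.7 to 14600, which covers counting error only. These last 3 genes lie on chromosome 13, with A01710 at 1132803 to 1133456, A01711 beside it at 1134555 to 1139122 and A01723 at 1220662 to 1223019. Whether reads of A01710 and A01711 could have been shared was not tested.

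Other undescribed genes fell. A04406 had 42.3, 40.5 and 37.4 CPM in Cd20, against 372, 566 and 447 CPM in Control (log2 fold change -3.52, SE 0.15, adjusted p = 1.51e-08). A04965 had 3.37, 4.18 and 4.37 CPM in Cd20, against 40.6, 50.5 and 48.0 CPM in Control (-3.54, SE 0.16). A10332 had 0.482, 1.22 and 0.312 CPM in Cd20, against 16.3, 11.4 and 16.1 CPM in Control (-4.37, SE 0.35). In all 3 every Control library lay far above every Cd20 library.

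Genes that changed at least 2-fold in the same direction lay side by side in 9 runs of 4 or more adjacent tested genes, of which 8 fell and 1 rose. The longest, of 7 genes on chromosome 2 from 6248116 to 6309829, had log2 fold changes of -2.46 to -1.08. The run that rose held 5 genes on chromosome 10 from 388205 to 407156, with 1.13 to 1.60. A run of 4 falls on chromosome 1 from 4450332 to 4463886 included the thiolase-domain gene A04643. How often such runs arise by chance was not tested.

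Per length, the most abundant transcripts were partly undescribed. In FPKM, which divides counts by coding length and library total, A09048 averaged 9614 in Cd20 and 10502 in Control, and A00216 7082 in Cd20 and 7382 in Control. Neither was called (log2 fold changes of CPM 0.00 and 0.07), and their libraries overlapped. A04347 averaged 4679 FPKM in Cd20 and 9547 FPKM in Control. In CPM it had 2069, 2005 and 1759 in Cd20, against 3926, 3417 and 3609 in Control (-0.91, SE 0.15). A07424, a hypothetical protein, averaged 7837 FPKM in Cd20 and 1021 FPKM in Control. In CPM it had 3630.1, 3651 and 4069.8 in Cd20, against 564, 359 and 441 in Control (3.06, SE 0.17, adjusted p = 1.35e-07). Novel01187, a gene model that the authors added, averaged 6419.8 FPKM in Cd20 and 3038 FPKM in Control. In CPM it had 11767, 10474 and 10017 in Cd20, against 4939, 4544 and 4554 in Control (1.20, SE 0.10).

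At 50 mg/L, set against the same 3 Control libraries, 1983 genes rose (17.8%) and 2431 fell (21.8%), together 39.6%. Because the comparisons share their controls, their values are given side by side, and the doses were compared directly with each other. Between the doses 7793 genes were called (70.0%), with 3928 higher in Cd50 (35.3%) and 3865 lower (34.7%). The balance depended on the scaling, with 5440 higher and 2262 lower in Cd50 under library size alone and 4971 higher and 2736 lower under upper quartile factors. More genes therefore separated Cd50 from Cd20 than separated either dose from Control. The trend with level ran the other way. However, the level groups were sorted by Cd20 and Control values, without Cd50. How much of the trend at 50 mg/L comes from this sorting was not tested. The lowest level group is left out here, because its weakest genes could pass the filter through Cd50 libraries alone. From the next group to the highest, the median log2 fold change against Control at 50 mg/L was 0.25, 0.08, -0.09 and -0.33. At the highest levels 68.1% of genes were lower in Cd50 than in Cd20.

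**Figure D5:**
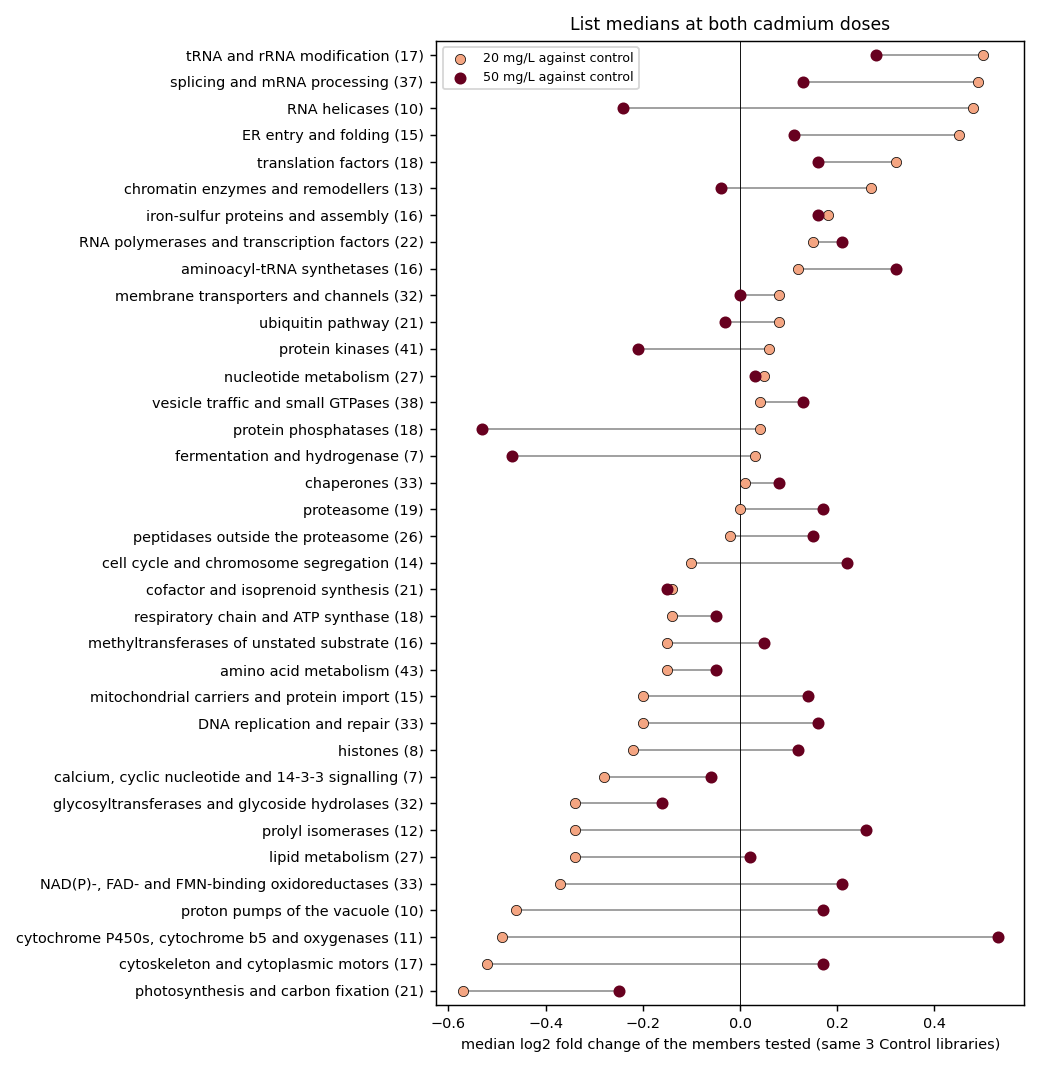
Median log2 fold change of the tested members of each of 36 gene lists at 20 mg/L (light points) and 50 mg/L CdCl2 (dark points), each against the same 3 Control libraries. The lists of splicing, RNA helicases, RNA modification, translation factors and ER genes lie further right at 20 mg/L, and lists of lipids, oxidoreductases and vacuolar pumps lie further left at 20 mg/L than at 50 mg/L.

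The lists that stood out at 20 mg/L mostly lay nearer to Control at 50 mg/L. Splicing genes had 24 rises and 7 falls of 37 at 20 mg/L and 6 rises and 4 falls at 50 mg/L, and 21 were lower in Cd50 than in Cd20. Over all genes 34.7% were lower in Cd50 than in Cd20. In the 2 upper level groups, which hold 22 of the 37 splicing genes, 50.4% and 68.1% of all genes were, so this count is not particular to splicing. For RNA helicases the median log2 fold change was 0.48 at 20 mg/L and -0.24 at 50 mg/L. ER genes had 9 rises at 20 mg/L and 3 at 50 mg/L. Lipid genes had 15 falls at 20 mg/L and 5 at 50 mg/L, and 15 of 27 were higher in Cd50 than in Cd20, where 35.3% of all genes were. Of the vacuolar pumps 8 of 10 were higher and 1 was lower in Cd50 than in Cd20, the lower one being the pyrophosphatase A02544, at -0.27 against Control and -0.80 against Cd20 (adjusted p = 3.89e-05). Protein phosphatases were the opposite case, with 4 rises and 3 falls at 20 mg/L and 0 rises and 11 falls at 50 mg/L.

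Single genes followed both patterns. Nop2 (A04256) was at 1.31 on the log2 scale at 20 mg/L and -0.25 at 50 mg/L, and PNO1 (A07533) at 1.42 and -0.19, in each case lower in Cd50 than in Cd20 (adjusted p = 0.000136 and 8.98e-05). The carboxyl transferase A09561 was at -1.92 at 20 mg/L and 0.22 at 50 mg/L. Protein tas (A00100) remained above Control, at 2.21 at 20 mg/L and 1.86 at 50 mg/L, as did the undescribed A07363, at 5.33 and 4.89. Both were somewhat lower in Cd50 than in Cd20, by -0.35 and -0.45 (adjusted p = 0.0165 and 0.00269). The metallo-beta-lactamase gene A09010 was higher at the higher dose, at 1.44 at 20 mg/L and 2.25 at 50 mg/L, with a difference between doses of 0.81 (adjusted p = 0.00104). The kinase-like gene A01104 was lower at both doses, at -1.52 and -1.99, and the cytochrome P450 A02478 at -0.89 and -1.38. Each of the last 2 was lower in Cd50 than in Cd20.

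Of the 189 genes chosen for naming, 181 were called by edgeR. The authors' deposited table for 20 mg/L against control, made from the same libraries, holds 178 of these, all 178 with the same sign.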

How the data were processed

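Counts, FPKM and product names were used as deposited. Libraries were made from poly(A) RNA by the dUTP method, in a single batch, per the labels' protocols. Tools listed in the submitters' processing notes are DESeq2 1.34.0, STAR 2.7.10a and StringTie 2.2.1, with no role given. Which program counted reads, with or without strand, and on which assembly and annotation, are points not given in the sources used here. Values of overlapping and antisense genes are therefore uncertain. The deposited count table holds whole numbers per gene and library. The deposited FPKM values divide them by coding length and library total. In the authors' tables of comparisons stand log2 fold changes and p-values of genes under 0.05, and also group means, deposited as a signal scaled between libraries, which were not used here.

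The test was edgeR's quasi-likelihood F-test (edgeR 4.0.16, R 4.3.3) with TMM scaling and a model of group alone, fitted to all 9 libraries together. A gene was called where its p, adjusted by Benjamini-Hochberg over all tested genes, was under 0.05. The step filterByExpr, with a minimum count of 10, left 11140 genes and took out 1465. The fit's biological coefficient of variation was 0.139. SE is the log2 fold change divided by the square root of F. The smallest library had 10457007 counts and the largest 15456743, and a few counts per library leave wide errors for the weakest genes. The code was checked on simulated counts. Alternatives were DESeq2 1.42.0, other scalings, no filter, the 2 groups alone, a replicate block and leaving out each library.

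The comparison, the genes and the lists were chosen with earlier results of these data known, and off-topic matches were taken out of the lists after reading product names. No list was tested as a set. Genes were named by rule: among calls of 10 CPM or more in the higher group with no overlap, and apart from 75 genes (those of the topics left aside and those already examined in earlier results, among them A10888, A07938 and A03155), the 12 largest rises and 12 largest falls with an informative product, the 4 largest of each without one, the 2 largest of each in every list, and the 10 most abundant by FPKM. The V-type ATPase genes other than A05895 and A09151, and A05926, A02782, A03862, A03155, A07938, A10888, A10377, A10982, A07895, A10744, Novel00414, A03867, A01849, A06936, A09909, A10050, A04412, A03300, A10684, A08800, A04852, A10480, A02279, A07845, A05842 and A07173, were chosen after their values were seen.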

Additional observations from a re-analysis of the deposited data

How the results depend on the processing

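Genes called higher in Cd20 numbered 2650, and 1916 (without Control 3) to 3062 (without Control 1) with 1 library left out. Genes called lower numbered 3026, and 2312 (without Cd20 3) to 3321 (without Control 1). Under the other scalings, without the filter, in DESeq2 and with the 2 groups alone these counts were 2054 to 2948 and 2841 to 3552. Between the doses, 3928 genes were higher in Cd50, and 3420 to 4158 with 1 library left out, and 3865 were lower, and 3341 to 4124 with 1 library left out. With library size alone 5440 were higher and 2262 lower in Cd50, and with upper quartile factors 4971 and 2736. The differences in the share of the 10 and 100 most abundant genes were 0.595 to 1.2 and 1.4 to 1.91 percentage points with 1 library left out.

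Of the 2457 values of the 189 named genes under alternatives, 2346 kept direction and call, 108 lost the call, 3 gained it and 0 changed sign. These changes fell on 25 genes. The named genes are mostly strong calls by the way they were chosen.

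Residuals of Cd20 and Control libraries with the same replicate number correlated only weakly, at -0.167, 0.056 and -0.0454. Pairing by number with the Cd50 libraries, which are in the same fit, was not tested. The highest level group held 82.3%, 81.1% and 81.3% of counts in Control 1 to 3 and 80.0%, 77.5% and 77.4% in Cd50 1 to 3. Replicate 1 was thus the highest in both groups. With the replicate number as a block 2931 genes were higher and 3137 lower in Cd20, 3966 were higher and 3978 lower in Cd50 than in Cd20, and 237 list members rose and 225 fell, against 223 and 222 without the block.

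Depth limits the weakest genes: the lowest level group starts at 0.114 CPM, and 1465 genes were too low to test.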
